A study of Rattus norvegicus with 6 samples.

Results

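The proteases that cut the extracellular matrix of the heart and the inhibitors that hold them in check were followed in rat heart RNA. The set held 9 of the 32883 named genes in the deposited count table, each taken by its symbol, and each symbol had its own row. It comprised 4 matrix metalloproteinase genes (Mmp2, Mmp14, Mmp19 and Mmp9), the cathepsin K gene Ctsk, and Timp1, Timp2, Timp3 and Timp4, which encode the tissue inhibitors of metalloproteinases (TIMPs). In the ISO group, 3 male Sprague–Dawley rats, 8 weeks old and labelled WT, received ISO under the skin at 1.5 mg/kg/day for 7 days. In the saline group, 3 rats of the same strain, sex, age and genotype label received an equal volume of saline over the same 7 days. A separate rat gave each library. The labels name the tissue as heart and the series text as myocardium, and neither names a chamber. The labels write ISO without expanding it; it is taken here to mean isoproterenol, an agonist of beta-adrenergic receptors. The series concerns cardiac hypertrophy and fibrosis, and its comparison is ISO against saline.

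Matrix metalloproteinases are zinc enzymes made as inactive precursors, and they cleave collagens, gelatin and other matrix proteins once the precursor part is removed. TIMPs bind the active site and block it, and they differ in their partners: Timp2 also takes part in activating the Mmp2 precursor on the cell surface together with Mmp14, while Timp3 binds to the matrix itself and also blocks ADAM proteases. Cathepsin K is a cysteine protease best known from bone-resorbing osteoclasts, where it degrades collagen, and it is held by cystatins rather than by TIMPs. RNA levels do not give the activity of these enzymes, because activation and inhibition take place on the protein.

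The 6 libraries held 14880391 to 17299589 counts. Levels are given in CPM, read counts scaled to a common library size, and they were not divided by gene length, so they are compared between groups and not between genes. Heart muscle genes were abundant, with Myh6 at 10400 to 16100 CPM in ISO and 16100 to 23400 CPM in saline. ISO replicate 1 held RNA of atrial genes, with 1128 counts of Myl7, which encodes a myosin light chain of the atria and was picked out once its values had been seen, against 17 and 0 in ISO replicates 2 and 3 and 9 to 25 in saline. ISO replicate 3 stood apart by its summed macrophage and fibroblast markers. Summed macrophage markers (8 genes) reached 1610 CPM there, of which Lyz2 gave 1030 CPM, against 698 and 668 CPM in ISO replicates 1 and 2 and 272 to 349 CPM in saline. Summed fibroblast markers (8 genes) reached 9370 CPM there, against 4130 and 3340 CPM in ISO replicates 1 and 2 and 1960 to 2280 CPM in saline. Of that sum, the collagen gene Col1a1 gave 6360 CPM in ISO replicate 3, against 1650 and 1390 CPM in ISO replicates 1 and 2. Dpt, Lum, Dcn and Pi16 were also highest in ISO replicate 3, whereas Scara5, Pdgfra and Tcf21 were higher in ISO replicate 1. Genes past a filter on low counts were tested with edgeR's quasi-likelihood test and a gene was called at a Benjamini-Hochberg adjusted p under 0.05. That test called 2.97% of 13766 genes, 203 higher and 206 lower, whereas unscaled counts gave 280 higher and 123 lower.

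Of the 9 genes, 8 passed the filter on low counts and 2 were called higher in ISO hearts, Mmp2 and Ctsk, where 1.47% of all tested genes were called higher. None was called lower by edgeR, DESeq2 or limma voom, which called 1.5%, 4.74% and 1.27% of tested genes lower. At an unadjusted edgeR p under 0.05, 6 were higher and none was lower, where 12% of tested genes were higher and 10.9% lower. Every ISO library lay above every saline library for Mmp2, Mmp14, Mmp19, Ctsk, Timp1 and Timp2, which is 6 of the 8, where 14.1% of all tested genes had that order. The median log2 fold change of the 8 genes was 1.08, against 0.02 over all tested genes. DESeq2 called 4 of them higher, adding Timp1 and Mmp19 to the list, where it called 5.46% of all tested genes higher. The rule in the series text, an absolute log2 fold change over 0.5 and an unadjusted p under 0.05, took 5 of them, where it took 8.67% of tested genes as higher. Limma voom called 2 higher, where it called 1.12% of tested genes higher, and edgeR without the filter on low counts called 3, adding Timp1 (edgeR adjusted p = 0.0233), where 1.6% were called higher. None was called higher at an adjusted p under 0.01, where 0.0291% of tested genes were, or with the replicate number as a block, where 0.109% were.

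**Figure D1:**
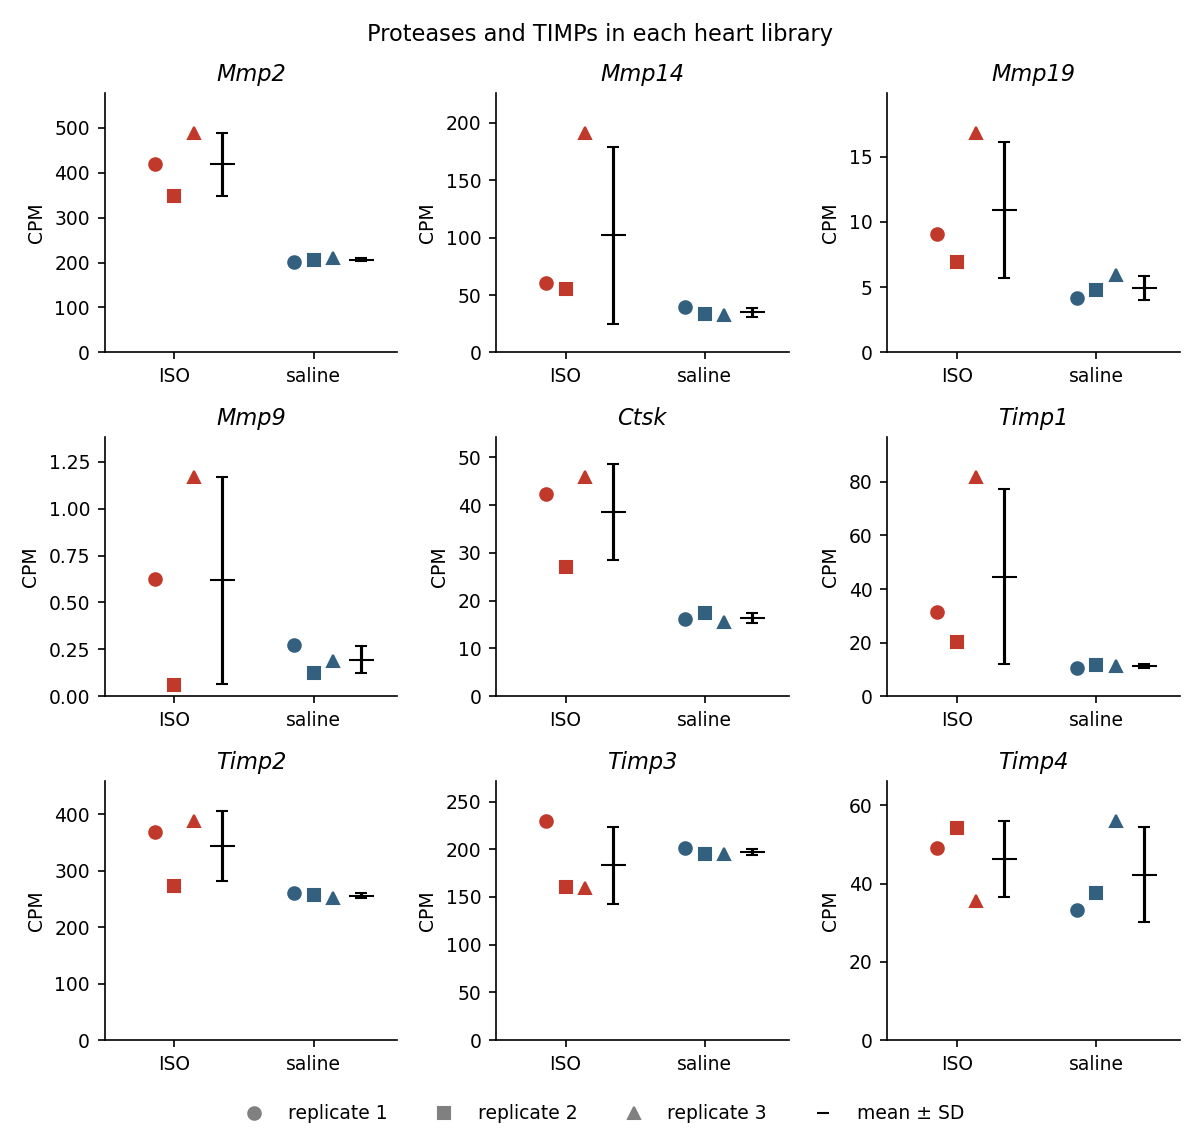
CPM of the 9 genes in each library, ISO on the left and saline on the right, with a marker shape for each replicate number and the mean ± SD (n = 3) in black; every axis starts at 0. The ISO libraries sit above all saline libraries for Mmp2, Mmp14, Mmp19, Ctsk, Timp1 and Timp2, and overlap with them for Mmp9, Timp3 and Timp4.

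Mmp2 encodes gelatinase A, which degrades denatured collagen and basement membrane collagen, and in the heart it is made largely by fibroblasts. Mmp2 (ENSRNOG00000016695) stood at 420, 347 and 488 CPM in ISO replicates 1 to 3, against 202, 206 and 209 CPM in saline replicates 1 to 3. The lowest ISO library lay well above the highest saline library, and the saline libraries were close to each other. Mmp2 averaged 418 ± 70.5 CPM in ISO and 206 ± 3.45 CPM in saline (SD, n = 3 each), a ratio of 2.04. The log2 fold change was 1.03 (SE 0.14, edgeR adjusted p = 0.0157), higher in 3 of 3 ISO libraries. Its size was similar whichever library was left out, between 0.90 and 1.14. Its call was lost without ISO replicate 1 (edgeR adjusted p = 0.0617) and without saline replicate 1, 2 or 3 (edgeR adjusted p = 0.0734, 0.0685 and 0.0946).

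Mmp14 encodes a metalloproteinase anchored in the cell membrane, which cuts fibrillar collagen and activates the Mmp2 precursor. Mmp14 (ENSRNOG00000010947) stood at 60.4, 54.9 and 191 CPM in ISO replicates 1 to 3, against 39.7, 33.3 and 32.5 CPM in saline. The groups did not overlap, but ISO replicate 3 lay far above the other two ISO libraries. Mmp14 had a log2 fold change of 1.54 (SE 0.45, 95% interval 0.52 to 2.56), which was not called (edgeR adjusted p = 0.0937). Without ISO replicate 3 the value was 0.72 and was called (edgeR adjusted p = 0.0371), and without ISO replicate 2 it was 1.84 and also called (edgeR adjusted p = 0.0463). The size of the Mmp14 difference therefore rested on ISO replicate 3, whereas its direction did not.

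Mmp19 encodes a metalloproteinase that cleaves basement membrane proteins. Mmp19 (ENSRNOG00000006778) stood at 9.08, 6.92 and 16.8 CPM in ISO, against 4.15, 4.75 and 5.94 CPM in saline. ISO replicate 2 and saline replicate 3 were nearly adjacent, and ISO replicate 3 was again the highest. Mmp19 had a log2 fold change of 1.14 (SE 0.33), which was not called (edgeR adjusted p = 0.0967). It was 0.70 without ISO replicate 3 (edgeR adjusted p = 0.173) and 1.38 without ISO replicate 2, where it was called (edgeR adjusted p = 0.0444).

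Mmp9 encodes gelatinase B, which neutrophils and macrophages release. Mmp9 (ENSRNOG00000017539) was close to the counting limit, with 10, 1 and 20 counts in ISO replicates 1 to 3, against 4, 2 and 3 counts in saline, and it did not pass the filter. A floor of 3 counts corresponds to 0.175 to 0.204 CPM in these libraries. Summed over libraries, Mmp9 had 31 counts in ISO and 9 in saline, a ratio of 3.26 with an exact 95% interval of 1.52 to 7.79 that covers counting error only. The libraries overlapped, since ISO replicate 2 held the fewest counts of all 6. Without the filter the log2 fold change was 1.62 (SE 0.92, edgeR adjusted p = 0.402). Without ISO replicate 2 Mmp9 passed the filter, at 2.16 (edgeR adjusted p = 0.091). Neutrophil markers were near the limit too. Their 8 genes summed to 1.43 to 4.55 CPM in ISO and 2.15 to 5.45 CPM in saline, the elastase gene Elane had no count in any library, and the part of such cells in the Mmp9 values was not tested.

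Ctsk (ENSRNOG00000021155) stood at 42.3, 27.1 and 45.9 CPM in ISO, against 16.1, 17.5 and 15.6 CPM in saline. ISO replicates 1 and 3 lay close together, and ISO replicate 2 was the lowest ISO library, still above every saline library. Ctsk averaged 38.5 ± 9.98 CPM in ISO and 16.4 ± 0.993 CPM in saline (SD, n = 3 each), a ratio of 2.35. On the log2 scale it was 1.23 higher (SE 0.19, edgeR adjusted p = 0.0205), with 3 of 3 ISO libraries above saline. It ranged from 1.09 to 1.43 with single libraries left out. The call was lost without ISO replicate 1 (edgeR adjusted p = 0.0858) and without saline replicate 1, 2 or 3 (edgeR adjusted p = 0.091, 0.0777 and 0.115).

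Among the inhibitors, Timp1 is known as the inducible TIMP, and it rises in injured and fibrotic tissue. Timp1 (ENSRNOG00000010208) stood at 31.6, 20.4 and 81.9 CPM in ISO replicates 1 to 3, against 10.4, 11.8 and 11.4 CPM in saline. Every ISO library exceeded every saline library, and ISO replicate 3 exceeded the other two ISO libraries by a wide margin. Timp1 averaged 44.6 ± 32.7 CPM in ISO and 11.2 ± 0.76 CPM in saline (SD, n = 3 each), a ratio of 3.98. The log2 fold change of 1.99 (SE 0.46, 95% interval 0.95 to 3.04) was the largest among the 8 tested genes and was not called (edgeR adjusted p = 0.0569). It was called without ISO replicate 2, at 2.34 (edgeR adjusted p = 0.0194), and without ISO replicate 3, at 1.22 (edgeR adjusted p = 0.0295).

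Timp1 overlaps the synapsin gene Syn1 in the RefSeq annotation of the GRCr8 assembly, and the strand setting of the counting was not given in the sources used here. Syn1 had 9, 5 and 25 counts in ISO and 0, 1 and 1 in saline, against 505, 327 and 1403 counts of Timp1 in ISO and 152, 189 and 181 in saline. Timp3 overlaps Syn3, Timp4 overlaps Syn2, Timp2 overlaps Cep295nl and Ctsk overlaps the pseudogene Eef1e1-ps1 in the same annotation. Syn2 had 76, 97 and 77 counts in ISO and 40, 66 and 71 in saline, and Syn3 and Cep295nl had at most 11 counts in any library. Whether the exons of these pairs overlap was not examined, so reads that a pair might share leave these counts uncertain.

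Promoter sequences were matched for 5 of the 9 genes, Ctsk and the 4 TIMP genes, from RefSeq (GRCr8), and Mmp2, Mmp14, Mmp19 and Mmp9 are named only. The 250 bases before the annotated start are shown for Timp1 and Ctsk, whose libraries did not overlap between groups, and for Timp3, a TIMP gene whose libraries did. Capitals mark matches on either strand to the letters searched: TGANTCA (AP-1), TGAGTAA (a variant AP-1 site), GGGCGG (GC box), AGGAAG (the core bound by Ets factors), CCAAT and TATAAA. The stretches are at chrX:3771123-3771372 on the minus strand, chr2:185747298-185747547 on the plus strand and chr7:19459559-19459808 on the minus strand.
Timp1: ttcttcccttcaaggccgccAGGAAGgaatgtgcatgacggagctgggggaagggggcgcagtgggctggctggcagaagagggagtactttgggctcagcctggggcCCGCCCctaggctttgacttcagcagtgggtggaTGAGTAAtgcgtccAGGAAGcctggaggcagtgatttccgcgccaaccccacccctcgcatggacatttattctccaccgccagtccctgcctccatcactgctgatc
Ctsk: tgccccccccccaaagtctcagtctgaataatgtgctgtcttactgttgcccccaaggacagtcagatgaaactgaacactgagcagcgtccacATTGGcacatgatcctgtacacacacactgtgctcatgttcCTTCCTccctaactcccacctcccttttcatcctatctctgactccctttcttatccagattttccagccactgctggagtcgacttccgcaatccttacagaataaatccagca
Timp3: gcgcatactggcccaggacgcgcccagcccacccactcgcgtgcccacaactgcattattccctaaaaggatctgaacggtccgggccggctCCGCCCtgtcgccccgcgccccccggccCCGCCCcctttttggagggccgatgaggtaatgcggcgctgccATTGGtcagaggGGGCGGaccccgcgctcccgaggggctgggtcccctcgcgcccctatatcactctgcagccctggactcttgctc
The Timp1 stretch held TGAGTAA from 108 to 102 bases before the start and AGGAAG from 94 to 89, with a second AGGAAG from 230 to 225 and a GC box on the other strand from 142 to 137. TGAGTAA occurred at least once in 2.38% and AGGAAG at least once in 29.5% of 33469 stretches of the same length. No match to TGAGTAA lay in the windows of Ctsk, Timp2, Timp3 or Timp4. Timp3 held 3 GC boxes and 1 CCAAT. At least 1 GC box was present in 30.5% of all stretches and at least 1 CCAAT in 34%, and the share with 3 GC boxes was not counted. Ctsk held 1 AGGAAG and 1 CCAAT. The AP-1 letters TGANTCA, in 6.34% of stretches, and TATAAA, in 12.9%, matched none of the 5 windows. A match describes letters and not binding.

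Timp2 is made constitutively in many tissues. Timp2 (ENSRNOG00000003148) stood at 369, 273 and 389 CPM in ISO, against 260, 257 and 251 CPM in saline. The groups did not overlap, although ISO replicate 2 lay close to the saline libraries. Timp2 had a log2 fold change of 0.42 (SE 0.15, 95% interval 0.09 to 0.76), not called (edgeR adjusted p = 0.139) except without ISO replicate 2, where it was 0.56 (edgeR adjusted p = 0.0298).

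Timp3 (ENSRNOG00000004303) stood at 230, 160 and 159 CPM in ISO, against 201, 195 and 195 CPM in saline. ISO replicate 1 lay above all saline libraries and ISO replicates 2 and 3 below them. The log2 fold change was −0.11 (SE 0.16, 95% interval −0.46 to 0.25, edgeR adjusted p = 0.729), and without scaling it was 0.004. Without ISO replicate 1 it was −0.31 (edgeR adjusted p = 0.287). Vwf, a gene of vascular and endocardial lining cells, was also highest in ISO replicate 1, at 709 CPM, against 219 and 236 CPM in ISO replicates 2 and 3 and 244 to 343 CPM in saline. Other genes of the endothelial list, named after their values were seen, were divided. Tie1 was highest in ISO replicate 1 too, at 211 CPM, whereas Cdh5 and Kdr were lowest there, at 217 and 110 CPM. The part of such cells in the Timp3 values was not tested.

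Timp4, a TIMP abundant in heart and also made in fat, stood at 49.2, 54.1 and 35.5 CPM in ISO, against 33.2, 37.5 and 56.1 CPM in saline (ENSRNOG00000007955). Its groups overlapped fully, and its log2 fold change was 0.13 (SE 0.22, 95% interval −0.38 to 0.64, edgeR adjusted p = 0.775), with values just below 0 without ISO replicate 2 or without saline replicate 1. Marker genes of fat cells were uneven between libraries, with Adipoq at 1.88 CPM in ISO replicate 1 and 0.875 CPM in saline replicate 2 and no count in the other 4 libraries. Timp4 was highest in saline replicate 3, a library without Adipoq counts. Fabp4 and Lipe, 2 other genes of that list, ran otherwise than Adipoq, and Lipe was named after its values were seen. They were highest in ISO replicate 2, at 643 and 121 CPM, and lowest in saline replicate 2, at 207 and 53.1 CPM. The part of fat cells in the Timp4 values was not tested.

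**Figure D2:**
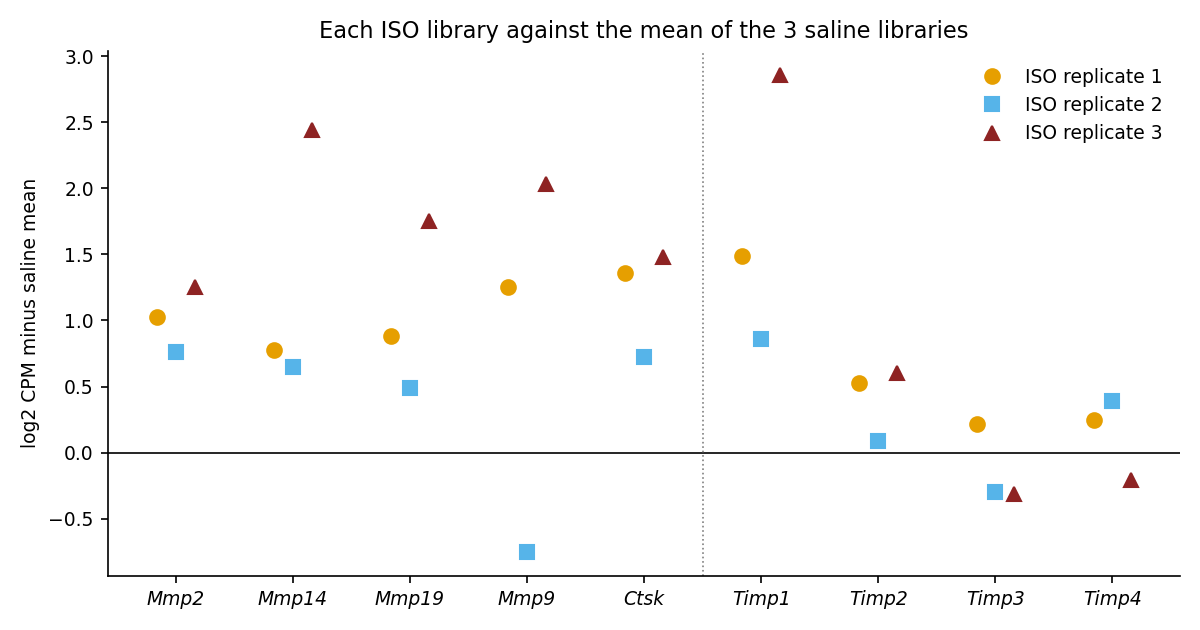
Log2 CPM of each ISO library minus the mean of the 3 saline libraries (prior count 2), proteases left of the dotted line and TIMPs right of it. ISO replicate 3 is the highest of the ISO libraries for Mmp14, at 2.44, and for Timp1, at 2.86, and the lowest for Timp4, at −0.21; ISO replicate 2 is the lowest for each of the 5 proteases.

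The ISO libraries kept the same order for most of these genes. Relative to the saline mean, ISO replicate 3 was highest for all 5 proteases and for Timp1 and Timp2, at 1.25 for Mmp2, 2.44 for Mmp14, 1.75 for Mmp19 and 2.86 for Timp1 on the log2 scale. ISO replicate 2 was lowest for the same 7 genes, at 0.76, 0.65, 0.49 and 0.86 for those 4. Timp3 and Timp4 did not share this order. Macrophage markers showed a median of 1.00, 0.81 and 1.53 over saline in ISO replicates 1 to 3, and fibroblast markers 0.76, 0.68 and 0.89. In bulk tissue, more cells of a type and more RNA per cell cannot be told apart, and the part of these cells in the protease and TIMP values was not tested.

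Leaving out single libraries changed the number of these genes called. With ISO replicate 2 left out, 6 were called higher (Mmp2, Mmp14, Mmp19, Ctsk, Timp1 and Timp2), where 3.5% of tested genes were called higher. With ISO replicate 3 left out, 4 were called (Mmp2, Mmp14, Ctsk and Timp1), where 1.23% of tested genes were. None was called without ISO replicate 1 or without any 1 of the saline replicates, where 0.0645% (ISO replicate 1), 0.0996%, 0.0427% and 0.0497% (saline replicates 1, 2 and 3) of tested genes were called higher. The log2 fold changes of Mmp2, Mmp14, Mmp19, Ctsk, Timp1 and Timp2 stayed above 0 in all 6 of these fits.

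**Figure D3:**
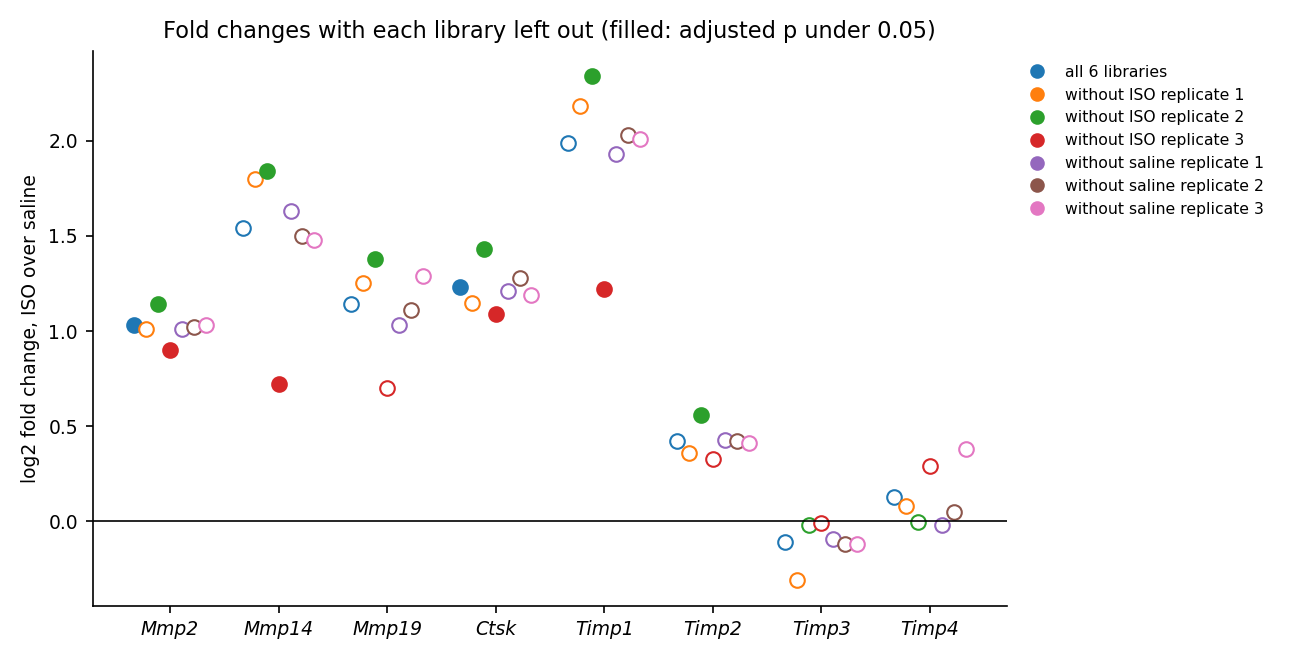
Log2 fold change of the 8 tested genes with all 6 libraries and with each library left out, filled where the edgeR adjusted p was under 0.05. Mmp2 and Ctsk move little, between 0.90 and 1.14 and between 1.09 and 1.43, whereas Mmp14 and Timp1 drop to 0.72 and 1.22 without ISO replicate 3.

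The balance of proteases to inhibitors was taken per library as the mean log2 CPM of the 5 protease genes minus that of the 4 TIMP genes. Gene length adds a constant to it, so its level cannot be read, but its difference between groups can. It was −2.18, −2.51 and −1.56 in ISO replicates 1 to 3, against −2.48, −2.67 and −2.70 in saline, so ISO replicate 2 fell among the saline libraries. The mean was −2.08 ± 0.48 in ISO and −2.62 ± 0.12 in saline (SD, n = 3 each), 0.54 higher in ISO. It was 0.28 without ISO replicate 3, the library that moved it most. The mean log2 CPM of the proteases was 1.08 higher in ISO and that of the TIMPs 0.54 higher. Without Mmp9, whose counts were near the floor, the balance was −0.94, −0.93 and −0.33 in ISO and −1.26, −1.31 and −1.40 in saline, and the groups did not overlap. Without Ctsk, which TIMPs do not hold, it was −2.39, −2.73 and −1.62 in ISO and −2.60, −2.85 and −2.81 in saline. That version was 0.51 higher in ISO, and its groups overlapped.

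The direction of this balance depended on which inhibitor it was set against, a split chosen after the values were seen. Against Timp1 alone it was −0.42, −0.48 and −1.06 in ISO and 0.16, −0.14 and −0.0025 in saline, 0.66 lower in ISO, with every ISO library below every saline library. Against Timp2, Timp3 and Timp4 it was −2.77, −3.18 and −1.73 in ISO and −3.36, −3.52 and −3.60 in saline, 0.93 higher in ISO, and here the ISO libraries all lay above the saline libraries. No test was run on these averages over the set.

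For 5 pairs of partners, each log2 ratio was compared with a two-sided exact permutation test, whose smallest possible p for 3 against 3 libraries is 0.1. The ratio of Mmp2 to Timp2, which can bind the Mmp2 precursor, was 0.18, 0.35 and 0.33 in ISO and −0.37, −0.32 and −0.26 in saline. The difference of 0.60 exceeded the spread within either group (SD 0.09 in ISO and 0.05 in saline, exact p = 0.1, adjusted over the 5 pairs 0.125) and lay between 0.57 and 0.66 with single libraries left out. The ratio of Mmp14 to Timp2 was −2.61, −2.31 and −1.02 in ISO and −2.71, −2.95 and −2.95 in saline, a difference of 0.88 (exact p = 0.1, adjusted 0.125) that was 0.41 without ISO replicate 3.

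The ratio of Mmp2 to Timp1 ran the other way, at 3.72, 4.08 and 2.57 in ISO and 4.27, 4.11 and 4.18 in saline. The difference was −0.72 (exact p = 0.1, adjusted 0.125) and was −0.28 without ISO replicate 3, with ISO replicate 2 only just below the lowest saline library. Mmp9 to Timp1, the pair in which Timp1 binds the Mmp9 precursor, was −5.40, −6.77 and −5.99 in ISO and −4.72, −5.58 and −5.20 in saline. Its groups overlapped, and the difference of −0.89 (exact p = 0.2, adjusted 0.2) rests on few Mmp9 counts and was −0.53 without ISO replicate 2. Ctsk to Cst3, which encodes the cysteine protease inhibitor cystatin C, was −4.05, −4.60 and −3.91 in ISO and −4.84, −4.79 and −4.81 in saline. That difference was 0.63 (exact p = 0.1, adjusted 0.125) and lay between 0.49 and 0.83 with single libraries left out.

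**Figure D4:**
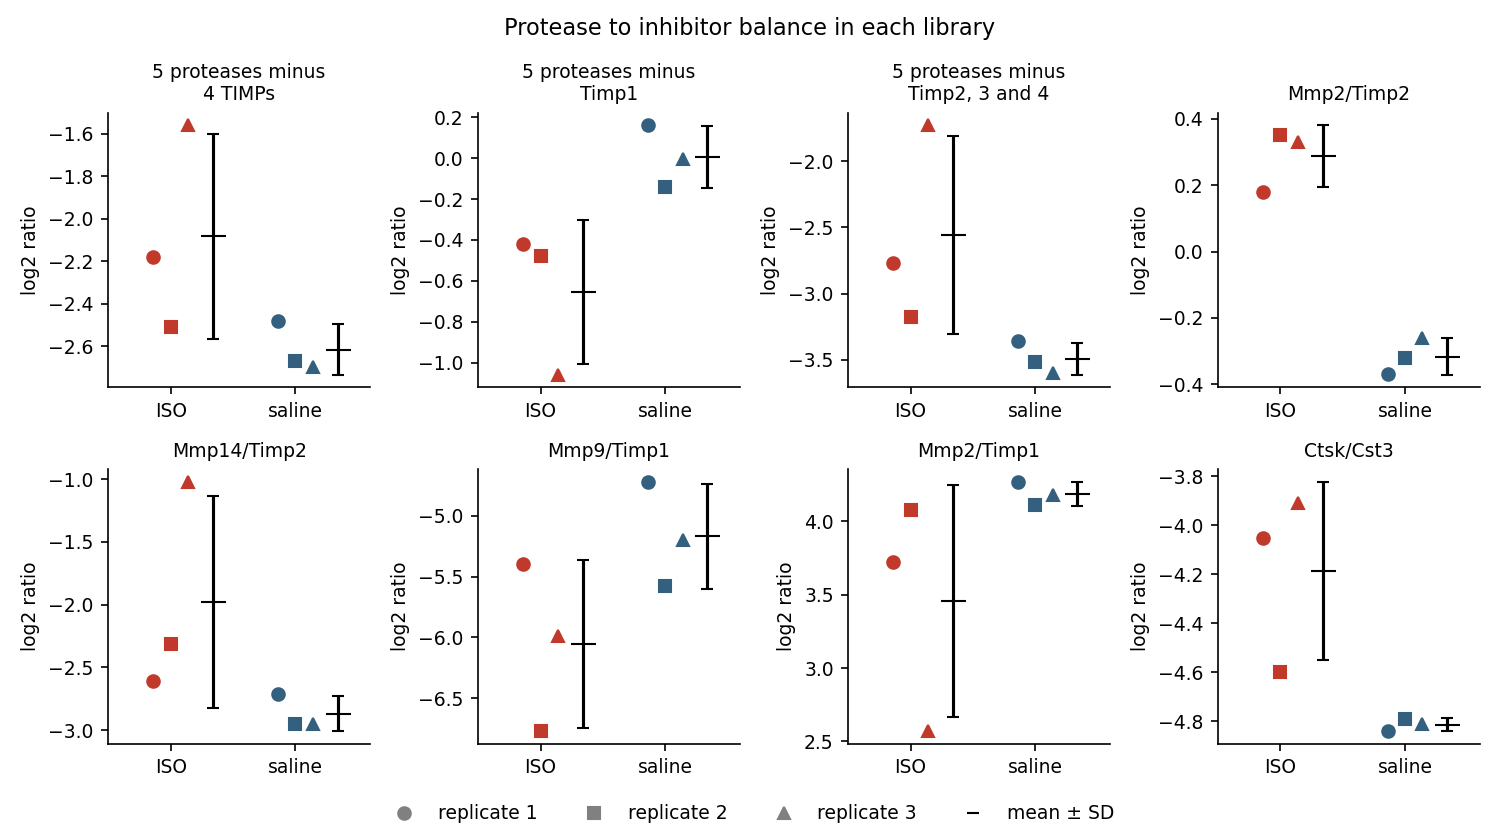
Log2 ratios by library, ISO left and saline right, for the average of the 5 proteases against all 4 TIMPs, against Timp1 and against the other 3 TIMPs, and for the 5 pairs, with mean ± SD (n = 3). The ISO libraries lie above saline for Mmp2/Timp2, Mmp14/Timp2 and Ctsk/Cst3, below saline for Mmp2/Timp1, and overlap for Mmp9/Timp1; the axes do not start at 0.

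Among the genes whose pattern over the 6 libraries lay closest to Mmp2 were the complement gene C1qc and the collagen gene Col18a1. Likeness was the root mean square difference of log2 CPM, each gene centred on its own mean, and it was 0.082 for C1qc and 0.085 for Col18a1 among 11967 genes averaging 1 CPM or more. Ctsk was the member closest to Mmp2, at 0.151 and rank 40. The genes closest to Timp1 were Cd68, a lysosomal glycoprotein gene used as a macrophage marker, at 0.068, then Clec4a3, a C-type lectin gene, at 0.112 and Cd300a, a leukocyte receptor gene, at 0.146. Cd68 stood at 23.6, 16 and 57.4 CPM in ISO and 7.15, 8.57 and 8.84 CPM in saline, and ISO replicate 3 was its highest library as it was for Timp1. Cd68 had a log2 fold change of 1.98 and was not called (edgeR adjusted p = 0.0514). It was called without ISO replicate 3, at 1.28 (edgeR adjusted p = 0.0278), and without ISO replicate 2, at 2.30 (edgeR adjusted p = 0.0194). It was also called without the filter (edgeR adjusted p = 0.0194), without scaling (edgeR adjusted p = 0.0482) and by DESeq2 (adjusted p = 2.44e-05). Cd68 was not called by limma voom (adjusted p = 0.0982) or with the replicate number as a block (edgeR adjusted p = 0.0767). Nor was it called without ISO replicate 1 (edgeR adjusted p = 0.094) or without saline replicate 1, 2 or 3 (edgeR adjusted p = 0.152, 0.149 and 0.176). Mmp14 was the member closest to Timp1, at 0.302 and rank 26. These are descriptions of 6 libraries that differ by group and by ISO replicate, and no test was run on them.

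Other matrix metalloproteinase genes were mostly low. Of 18 listed, 17 were in the table, 5 had no count in any library and 5 passed the filter. None of those 5 was called by edgeR or voom, while at an unadjusted edgeR p under 0.05 there were 2 higher and 1 lower, and DESeq2 called 1 higher and 1 lower. Mmp15, another membrane-anchored member of the family, named as the listed gene with the highest CPM, stood at 107, 119 and 92.4 CPM in ISO, against 142, 146 and 147 CPM in saline. All its ISO libraries lay below saline, and its log2 fold change of −0.45 (SE 0.12) was not called (edgeR adjusted p = 0.0757). Mmp15 was called lower by DESeq2 (adjusted p = 0.0138) and without ISO replicate 2, at −0.54 (edgeR adjusted p = 0.0399), and in no other setting tried. Mmp23 and Mmp16, named after their values were seen, went the other way. They stood at 1.21 and 1.38 and were not called (edgeR adjusted p = 0.127 and 0.162). Mmp12, macrophage elastase, was picked out once its values had been seen; it held 11, 9 and 140 counts in ISO and 1, 7 and 0 in saline, so most of its counts came from ISO replicate 3, and it did not pass the filter.

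Among other cathepsins, 1 of 11 tested genes was called higher and none lower, with a median log2 fold change of 0.55. For this and all other lists, the shares over all tested genes were 1.47% called higher and 1.5% lower by edgeR. They were 5.46% and 4.74% by DESeq2, 1.12% and 1.27% by voom, and 12% and 10.9% at an unadjusted edgeR p under 0.05. At an unadjusted edgeR p under 0.05, 7 of the 11 cathepsins were higher and none was lower. DESeq2 called 5 of them higher and voom 1, and neither called any lower. The called gene was Ctsf, a lysosomal cysteine protease gene, at 63, 68.7 and 71.9 CPM in ISO and 40.5, 35.4 and 44.3 CPM in saline. Its log2 fold change was 0.76 (SE 0.12, edgeR adjusted p = 0.0204). Every ISO library lay above every saline library in 7 of the 11, where 14.1% of all tested genes had that order.

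Among cystatins and other inhibitors, Cst3 was the called gene of 9 tested, at 705, 661 and 690 CPM in ISO and 463, 487 and 442 CPM in saline. Cst3 was 0.56 higher on the log2 scale (SE 0.11, edgeR adjusted p = 0.0385). Over the list the median was 0.43, and none of it was lower at an unadjusted edgeR p under 0.05 or called lower by DESeq2 or voom. At that unadjusted p 4 of the 9 were higher, and DESeq2 called 2 higher and voom 1. Reck, which encodes a membrane-anchored inhibitor of metalloproteinases and was named after its values were seen, stood at 0.39 (SE 0.11, edgeR adjusted p = 0.0914).

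Activators, cofactors and clearance receptors had 2 of 14 tested genes higher, and none was lower by any of the 3 tools or at an unadjusted edgeR p under 0.05. At that unadjusted p 10 of the 14 were higher, and DESeq2 called 6 higher and voom 2. Plaur, the receptor of urokinase, which directs plasmin formation to the cell surface, stood at 5.26, 5.11 and 6.3 CPM in ISO and 1.7, 1 and 1.33 CPM in saline. All ISO libraries were well above saline, and the log2 difference of 2.05 (SE 0.29, edgeR adjusted p = 0.0164) had a smaller error than the 1.99 of Timp1. The list's median was 0.49. Prss23, a secreted serine protease gene, was at 0.80 (SE 0.12, edgeR adjusted p = 0.0175). Furin, the convertase that removes the precursor part of Mmp14, was named after its values were seen and stood at 0.45 (SE 0.14, edgeR adjusted p = 0.108).

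ADAM proteases, several of which Timp3 can block, had a median log2 fold change of 0.02. Of 9 tested, 1 was lower and none higher by edgeR or voom, with 2 higher and 2 lower at an unadjusted edgeR p under 0.05 and 1 higher and 1 lower by DESeq2. Adam19, a membrane protease gene active in heart development, stood at 152, 183 and 179 CPM in ISO, against 261, 263 and 242 CPM in saline. Its log2 fold change was −0.58 (SE 0.12, edgeR adjusted p = 0.0407), lower in 3 of 3 ISO libraries.

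**Figure D5:**
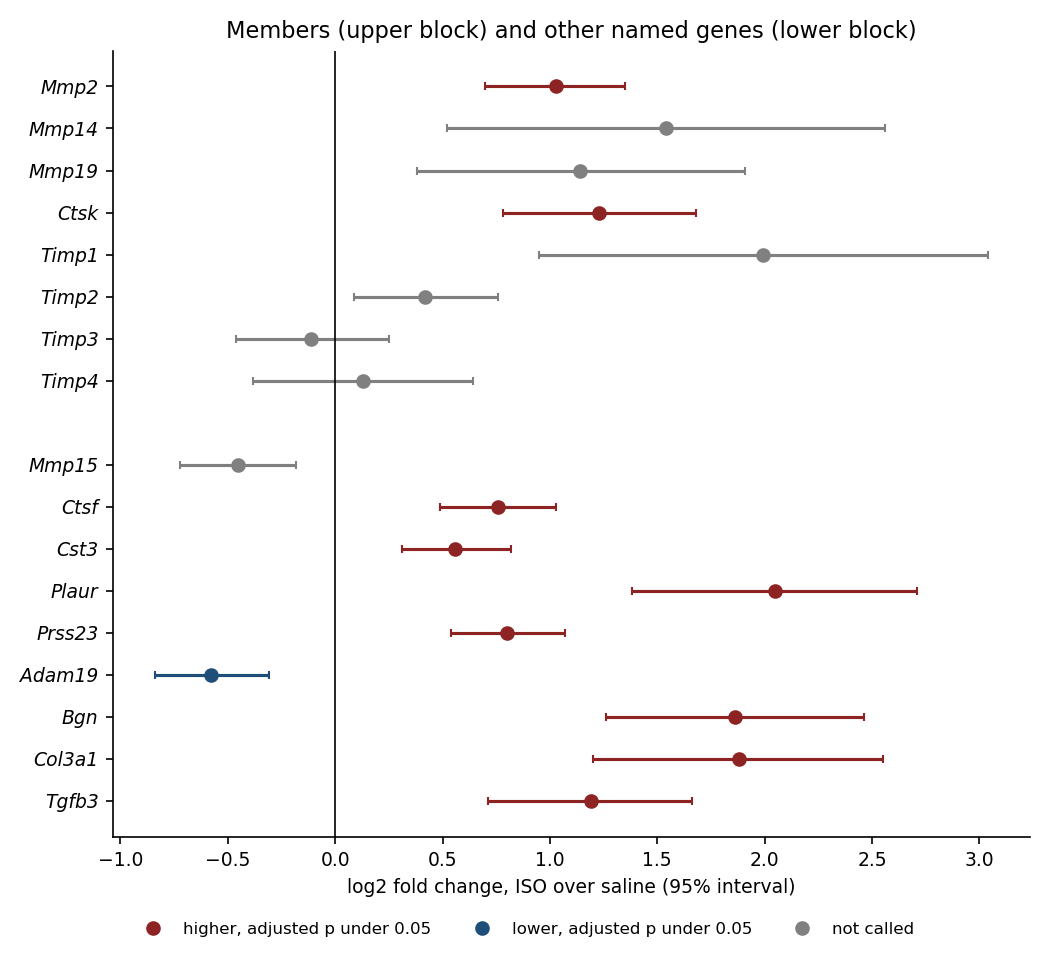
Log2 fold change of ISO over saline with its 95% interval for the 8 tested proteases and TIMPs (upper block) and for the other named genes of matrix turnover, substrates and signals (lower block), coloured by the edgeR call. Timp1 at 1.99 and Mmp14 at 1.54 have wide intervals, Timp3 and Timp4 span 0, and Adam19 at −0.58 is the called gene below 0.

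Among matrix proteins that these enzymes cut, 2 of 13 tested genes were called higher, with a median of 1.01, and none was lower by any of the 3 tools or at an unadjusted edgeR p under 0.05. At that unadjusted p 8 of the 13 were higher, and DESeq2 called 5 higher and voom 2. Bgn, the proteoglycan biglycan, stood at 857, 661 and 1330 CPM in ISO and 230, 317 and 237 CPM in saline, 1.86 higher in ISO on the log2 scale (SE 0.26, edgeR adjusted p = 0.0164). Col3a1, a fibrillar collagen gene, stood at 4470, 3890 and 8160 CPM in ISO and 1560, 1710 and 1230 CPM in saline, with a log2 fold change of 1.88 (edgeR adjusted p = 0.0204). Both differences were larger than those of Mmp2 and Ctsk, which was not tested as a difference between genes.

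Signals and transcription factors known to act on these promoters had 1 of 22 tested genes higher and none lower by edgeR, with 6 higher and 1 lower at an unadjusted p under 0.05, while DESeq2 called 5 higher and 1 lower and voom 1 higher. The called gene was Tgfb3, a TGF-beta ligand gene, at 129, 78.1 and 132 CPM in ISO and 50.2, 55.6 and 43.2 CPM in saline. Its log2 fold change was 1.19 (SE 0.21, edgeR adjusted p = 0.0281). The inflammatory cytokine genes Tnf and Il6, named after their values were seen, had 0, 0 and 0 and 0, 2 and 0 counts in ISO, and 1, 0 and 0 and 1, 0 and 0 in saline. At that depth no difference in them was detectable. The AP-1 gene Junb, also named after its values were seen, stood at 31.9, 28.6 and 69.9 CPM in ISO and 25.2, 14.9 and 18 CPM in saline, with a log2 fold change of 1.17 that was not called (edgeR adjusted p = 0.102). The other listed AP-1 genes were divided. Fos, Fosb, Fosl1, Jun and Jund stood at 2.71, 0.50, 0.29, 0.30 and 0.09, and their groups overlapped. Fosl2 stood at 0.66, with every ISO library above saline. The Ets factor genes Ets1 and Ets2 stood at −0.40 and 0.19. All of these were named after their values were seen, and edgeR called none of them. The calls of Ctsf, Plaur, Prss23, Bgn, Col3a1 and Tgfb3 held in 2 of the 6 fits with a library left out, those without ISO replicate 2 or 3. The calls of Cst3 and Adam19 held in 1, that without ISO replicate 2.

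Marker genes of the cells that make these enzymes moved as well. Macrophage markers had 4 of 8 genes called higher, C1qa at 1.15, Cd163 at 1.11, Lyz2 at 2.44 and Csf1r at 1.17, and none lower by any of the 3 tools or at an unadjusted edgeR p under 0.05. Fibroblast markers had 3 of 8 called higher, Scara5 at 0.82, Dpt at 0.87 and Pi16 at 0.81, and none lower by any of them. DESeq2 called 7 of 8 macrophage and 7 of 8 fibroblast markers higher, and voom 3 of each. At an unadjusted edgeR p under 0.05, 8 of 8 in each of these lists were higher. C1qa kept its call without ISO replicate 1, 2 or 3 and Pi16 without ISO replicate 2, and the other 5 kept theirs without ISO replicate 2 or 3. Col1a1 and Dcn stand in both the substrate and the fibroblast list. Cardiomyocyte markers had 1 of 8 lower, Actc1 at −1.18, and none higher by any of the 3 tools or at an unadjusted edgeR p under 0.05, and the call held without ISO replicate 2 or 3. DESeq2 called 4 of the 8 lower and voom 1, and 4 were lower at an unadjusted edgeR p under 0.05. Their sum was 35000 to 48800 CPM in ISO and 57900 to 67400 CPM in saline.

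Markers of other cell types held few or no calls. Of the mural cell, endothelial, mesothelial, neutrophil and adipocyte lists, with 8, 6, 7, 2 and 2 tested genes, edgeR and voom called none. DESeq2 called 1 higher and 1 lower mural gene, 1 lower endothelial gene and 1 higher adipocyte gene, and 2, 1, 0, 1 and 1 genes of the 5 lists had an unadjusted edgeR p under 0.05. The genes named from these lists, for their CPM, were Rgs5, Vwf, Wt1, Csf3r and Fabp4, and their log2 fold changes were −0.19, 0.46, −0.35, 1.30 and 0.62, none of them called. Single libraries moved these values: Vwf stood at −0.32 and Rgs5 at −0.12 without ISO replicate 1, Wt1 at −0.59 and Fabp4 at 0.30 without ISO replicate 2, and Csf3r at 0.53 without ISO replicate 3. The named genes did not stand for their whole lists. S100a9, the other tested neutrophil gene, stood at −1.11 (edgeR adjusted p = 0.311). In the endothelial list, Kdr, Emcn and Cdh5 stood at −0.56, −0.25 and −0.10, and Egfl7 and Tie1 at 0.16 and 0.10. S100a9 and these endothelial genes were named after their values were seen, and edgeR called none of them. Summed levels were 733 to 830 CPM in ISO and 747 to 831 CPM in saline for mural markers, 910 to 1370 CPM in ISO and 984 to 1110 CPM in saline for endothelial markers, and 29.5 to 74.1 CPM in ISO and 26 to 90.5 CPM in saline for mesothelial markers. Adipocyte markers summed to 431 to 764 CPM in ISO and 263 to 438 CPM in saline, mostly Fabp4, and atrial markers to 1010 to 1620 CPM in ISO and 181 to 350 CPM in saline. Nppa made up most of the atrial sum in the ISO libraries and in saline replicate 2, and Dkk3 was the largest part in saline replicates 1 and 3, at 111 and 112 CPM. The endothelial junction gene Cldn5 was at 0 in every library, whereas Cdh5 of the same list stood at 217 to 264 CPM in ISO and 232 to 290 CPM in saline. Whether that 0 reflects expression or the counting was not examined. Among 5 tested atrial markers, Nppa, a natriuretic peptide gene that strained ventricles also express, was called at 3.40, and its call held without ISO replicate 2 or 3 or saline replicate 2. With ISO replicate 1 left out, Mmp2 stood at 1.01, Ctsk at 1.15 and Timp1 at 2.18.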

How the data were processed

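RNA from 6 rat hearts, 3 given ISO and 3 given saline, was analysed. Per the series text, the authors aligned 150 bp paired reads by HISAT2, used featureCounts to count them, and deposited whole-number counts per gene that were not normalised. Versions, annotation and strand setting were not given in the sources used here. A mouse build, mm10, stands in the submitters' processing notes, whereas the series text names the rat genome and the 32883 named rows carry rat Ensembl identifiers. The 1006 rows without a gene name, 0.981% to 1.32% of a library's counts, were left out.

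The main test on these counts was that of edgeR 4.0.16, run in R 4.3.3 (quasi-likelihood test, TMM scaling, default filter, 13766 genes) with Benjamini-Hochberg adjustment, after a test on simulated data. The standard error is the log2 fold change divided by the square root of F, and 95% intervals use the fit's degrees of freedom. Log2 CPM used a prior count of 2. Pairs of libraries within a group differed by more than sampling noise. P-values rest on 3 rats a group. DESeq2 1.42.0, limma 3.58.1 (voom) and the other alternatives are in the closing section.

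The 9 genes and all lists were chosen with earlier results of these data known. Named genes were the 9; from each other list up to 4 called genes with the smallest p, or that with the highest CPM where none was called; and the 3 genes most like Mmp2 and Timp1, of which 1 is not reported here. Others fall outside this rule, and many of them are marked as named after their values were seen. Myh6, Elane, Adipoq, Cldn5 and Dkk3 are among those outside the rule that carry no such mark.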

Additional observations from a re-analysis of the deposited data

How the results depend on the processing

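Over 16 alternatives, the log2 fold change of Mmp2 lay between 0.90 and 1.14 and that of Ctsk between 1.09 and 1.43, and each lost its call in 6 of them. Mmp14, Mmp19, Timp1 and Timp2 kept their direction in all 16 and became called in 3, 3, 5 and 1. Timp3 turned to 0.004 without scaling, where the median of all genes was 0.13 against 0.02 with it. Timp4 turned to −0.0016 without ISO replicate 2 and −0.02 without saline replicate 1, and ran up to 0.38 with other libraries left out. The causes of these changes were not tested. Against 2 members called higher and 0 lower, DESeq2 called 4, the series' rule 5, and an adjusted p under 0.01 none (0), and with single libraries left out the count ran from 0 to 6. Of 48 other tested genes of matrix turnover, 4 were called higher and 1 lower, where 1.47% and 1.5% of all tested genes were. Shares in brackets below are those over all tested genes in the same setting. The higher count was 7 without the filter (1.6%), 15 by DESeq2 (5.46%), 18 by the series' rule (8.67%) and 0 at an adjusted p under 0.01 (0.0291%). It ran from 0 to 11 with single libraries left out (0.0427% to 3.5%). The lower count was 0 without scaling (0.894%), 2 by DESeq2 (4.74%) and 0 at an adjusted p under 0.01 (0.0508%). It ran from 0 to 2 with single libraries left out (0.0355% to 2.46%). With the replicate number as a block, 0 members and 0 higher (0.109%) and 0 lower (0.0944%) genes of matrix turnover were called. In that fit Mmp2 was at 1.01 (edgeR adjusted p = 0.0555) and Ctsk at 1.20 (edgeR adjusted p = 0.0718). Deviations of same-numbered libraries from their group means correlated at 0.09, −0.10 and 0.02 across genes, and those of differently numbered libraries at −0.15 to 0.12. With 3 libraries a group, these values cannot tell whether the number marks anything shared, and the labels do not say what it marks. The balance of 0.54 ran from 0.28 to 0.75 with single libraries left out, and was −0.66 against Timp1 alone and 0.93 with Timp1 left out of the inhibitors, 2 settings added after the data were seen. No pair ratio changed sign. Depth limits Mmp9, Mmp12, Tnf and Il6, whose saline libraries held 7 counts or fewer.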

Other observations

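Mmp12, which encodes a macrophage elastase, had a higher ratio of summed counts than Mmp9, 160 counts in ISO and 8 in saline, a ratio of 18.9 with an exact 95% interval of 9.38 to 44.6 that covers counting error only. Of its ISO counts, 140 came from ISO replicate 3, the library with the highest summed macrophage markers. Mmp8, a collagenase of neutrophils, had 1, 2 and 14 counts in ISO and 17, 7 and 2 in saline, and its groups overlapped. Syn1, the gene that overlaps Timp1, ordered the ISO libraries as Timp1 did, with 25 counts in ISO replicate 3, 9 in ISO replicate 1 and 5 in ISO replicate 2, and every ISO library lay above the saline libraries, which held 0, 1 and 1. Whether their exons share reads was not examined. These genes were picked out once their values had been seen, and they did not pass the filter on low counts.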
